A study of Mus musculus with 8 samples.

Results

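The potassium channel genes are taken here as all genes whose symbol starts with Kcn, leaving out Kcnj13, Kcne2, Kcnj8 and symbols ending in os or ot1. Of 24062 genes with counts, 92 met that rule. They comprised 75 genes of pore-forming subunits, 15 of auxiliary subunits and 2 others, Kcnrg, which encodes a regulator of channel assembly, and the antisense transcript Kcnmb4os1. A total of 81 passed the filter on low counts and were tested between mutant and control cerebella. The 11 that did not pass (Kcna7, Kcna10, Kcne3, Kcnj1, Kcnj4, Kcnk7, Kcnk15, Kcnk16, Kcnk18, Kcnmb3 and Kcnmb4os1) had at most 19 reads in any library, and 1 of them, Kcnk16, had none.

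Potassium channels let potassium leave or enter a cell along its gradient and so set the resting potential, end each action potential and shape how fast a neuron can fire. Pores of the voltage-gated families open on depolarization, the calcium- and sodium-activated families link firing to ion load, and the inward rectifiers and tandem-pore leak channels hold the cell near rest. Auxiliary subunits bind the pores and alter their gating or their number at the membrane. In the cerebellum, granule neurons, Purkinje cells, interneurons and glia each use their own mixture of these subunits, and the mixture is still being assembled in the newborn.

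RNA was measured by polyA sequencing of whole cerebella dissected from single pups on postnatal day 2, with 4 pups per genotype on a mixed C57BL/6 background. In mutants, Math1-Cre was combined with Sufu flox/-, that is, 1 floxed copy and 1 null copy. Sufu holds back Hedgehog signalling by binding the Gli transcription factors. Math1-Cre acts in cells of the Math1 lineage, which includes granule cell precursors. Mutant cells outside that lineage would keep the floxed copy, and deletion by cell type was not measured here. The controls were littermates, given as Sufu flox/+ in the series text and only as control in the sample labels, and their Cre status was not stated there. The parental cross also brought in a Math1 mgfp allele, described for the cross and not by group. The null allele and the Cre deletion cannot be told apart in this design. Each sample title carries a letter whose meaning is not stated. Controls 1 and 2 and mutants 1 and 2 have the letter P, and controls 3 and 4 and mutants 3 and 4 have the letter R.

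Reads counted in genes numbered 21479565 to 26638284 per library. Levels are given in CPM, counts scaled to a common library size after TMM scaling. Sufu stood at 47.7, 50.97, 55.9 and 60.7 CPM in controls 1 to 4 and at 31.7, 34.4, 36.8 and 39.8 CPM in mutants 1 to 4, with no overlap. Its log2 fold change of -0.59 (SE 0.11) had an adjusted p of 0.381 in edgeR's quasi-likelihood test and of 0.001 in DESeq2. Over all 15789 tested genes, edgeR called 0 at an adjusted p under 0.05. The libraries of mutants 3 and 4 stood apart from the other mutants, so log2 fold changes within P, which leave them out, and within R are given beside the genes described most fully.

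In the control cerebella the potassium channel genes with the highest level per length were spread over 9 subfamilies. Level per length is CPM per kilobase of exon in controls, with exon lengths from GENCODE models of GRCm38. Kcne1l, an auxiliary subunit of the KCNE family, led at 26.2 ± 1.31 CPM per kb (SD, n = 4), followed by Kcnj10, the main inward rectifier of astrocytes and oligodendrocytes, at 24.9 ± 2.01 CPM per kb (SD, n = 4). Kcnd2, which forms the fast-inactivating A-type current together with Kcnd3, was next at 21.8 ± 1.25 CPM per kb (SD, n = 4). Neighbours among these 3 genes overlapped in their range over the controls, while every Kcne1l value lay above every Kcnd2 value. All control values of Kcnd2 lay above those of Kcnip3, a KChIP subunit of the same A-type channels, at 18.003 ± 1.01 CPM per kb (SD, n = 4).

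The next genes in that order overlapped with their neighbours. They included the leak channel gene Kcnk1 at 15.3, Kcnc4 at 14.7, Kcna6 at 13.7, Kcnh2 at 12.3, Kcnip1 at 12.3, Kcnab2 at 11.7, Kcnc1 at 11.5 and Kcnd3 at 10.6 CPM per kb. Kcnd3 lay above the next gene, Kcnmb4 at 8.002 CPM per kb, in every control. In all, 13 of the 81 tested genes exceeded 10 CPM per kb and 23 were below 1 CPM per kb. The low group held, among others, the silent subunit gene Kcns3, Kcnn4 and Kcna5.

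**Figure D1:**
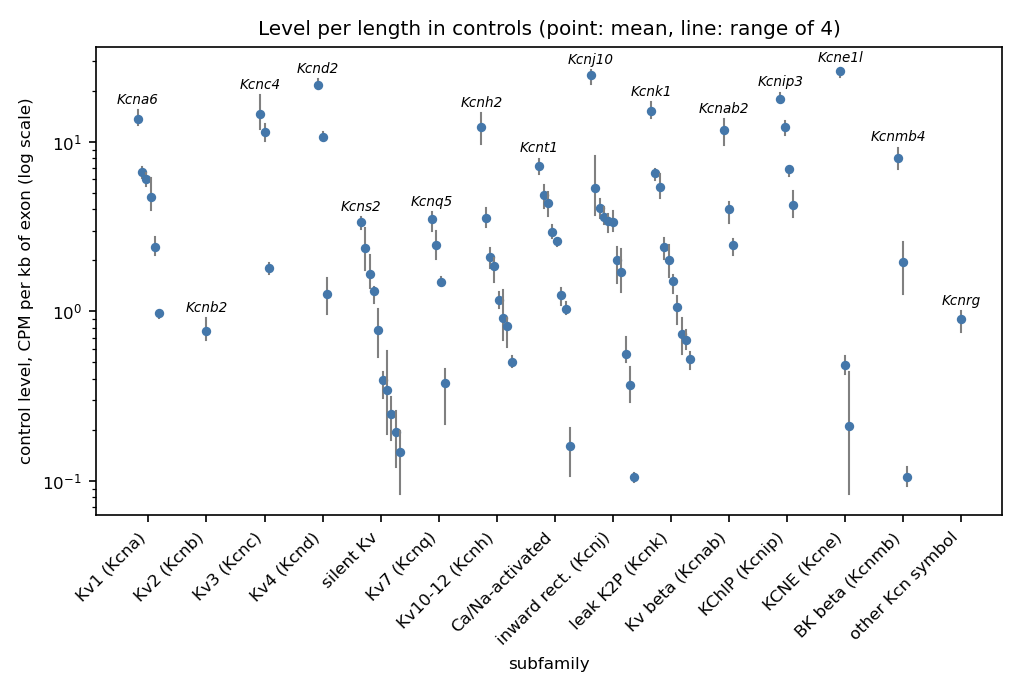
Level per length of 78 tested potassium channel genes in the 4 control libraries, in CPM per kb of exon on a log axis, ordered within each subfamily, with the mean as a point and the range of the 4 controls as a line. Kcne1l, Kcnj10 and Kcnd2 sit highest, and the silent subunits reach down to about the lowest levels measured.

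Potassium channel genes were more often lower than higher in mutants, but no single gene passed the test. Among the 81 tested, 61 (75.3%) had a negative log2 fold change against 47.7% of all tested genes. Their median log2 fold change was -0.16, beside 0.01 over all tested genes. Individual values ran from -0.90 for the leak channel gene Kcnk4 to 1.25 for Kcnn4. The 2 title letters differed, with 38 of 81 negative and a median of 0.03 within P, and 64 of 81 and a median of -0.45 within R. In bulk tissue, fewer cells of a type and less RNA per cell cannot be told apart.

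By edgeR, 0 of the 81 genes had an adjusted p under 0.05, against a background of 0% of all tested genes, and the smallest adjusted p was 0.381. DESeq2 also called 0 of them, against 0.316% of all genes, with a smallest adjusted p of 0.104. Without adjustment, edgeR put 12 of the 81 (14.8%) under 0.05, against 12.6% of all tested genes, and DESeq2 put 11 (13.6%) there, against 13.8% of all genes. Of the 12, 10 were lower in mutants (background 5.7%) and 2 were higher (background 6.94%). The lower ones were Kcnk4, Kcnk3, Kcnab2, Kcnip2, Kcns1, Kcnip3, Kcnh2, Kcna5, Kcnn1 and Kcns3, and the higher ones were Kcnn4 and Kcnd3. Mutants and controls did not overlap for 5 genes (6.17%), a share near the background of 6.57%. All 5 were lower in mutants, where the background is 2.96%, and 0 were higher, where it is 3.6%. The number lower without overlap was 15 without mutant 1 (18.5%, all genes 8.34%), 13 without control 2 (16.0%, all genes 7.6%) and 12 without mutant 2 (14.8%, all genes 4.95%). The number with an unadjusted p under 0.05 by edgeR was 29 without mutant 1 (35.8%, all genes 20%) and 5 without control 3 (6.17%, all genes 7.13%).

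**Figure D2:**
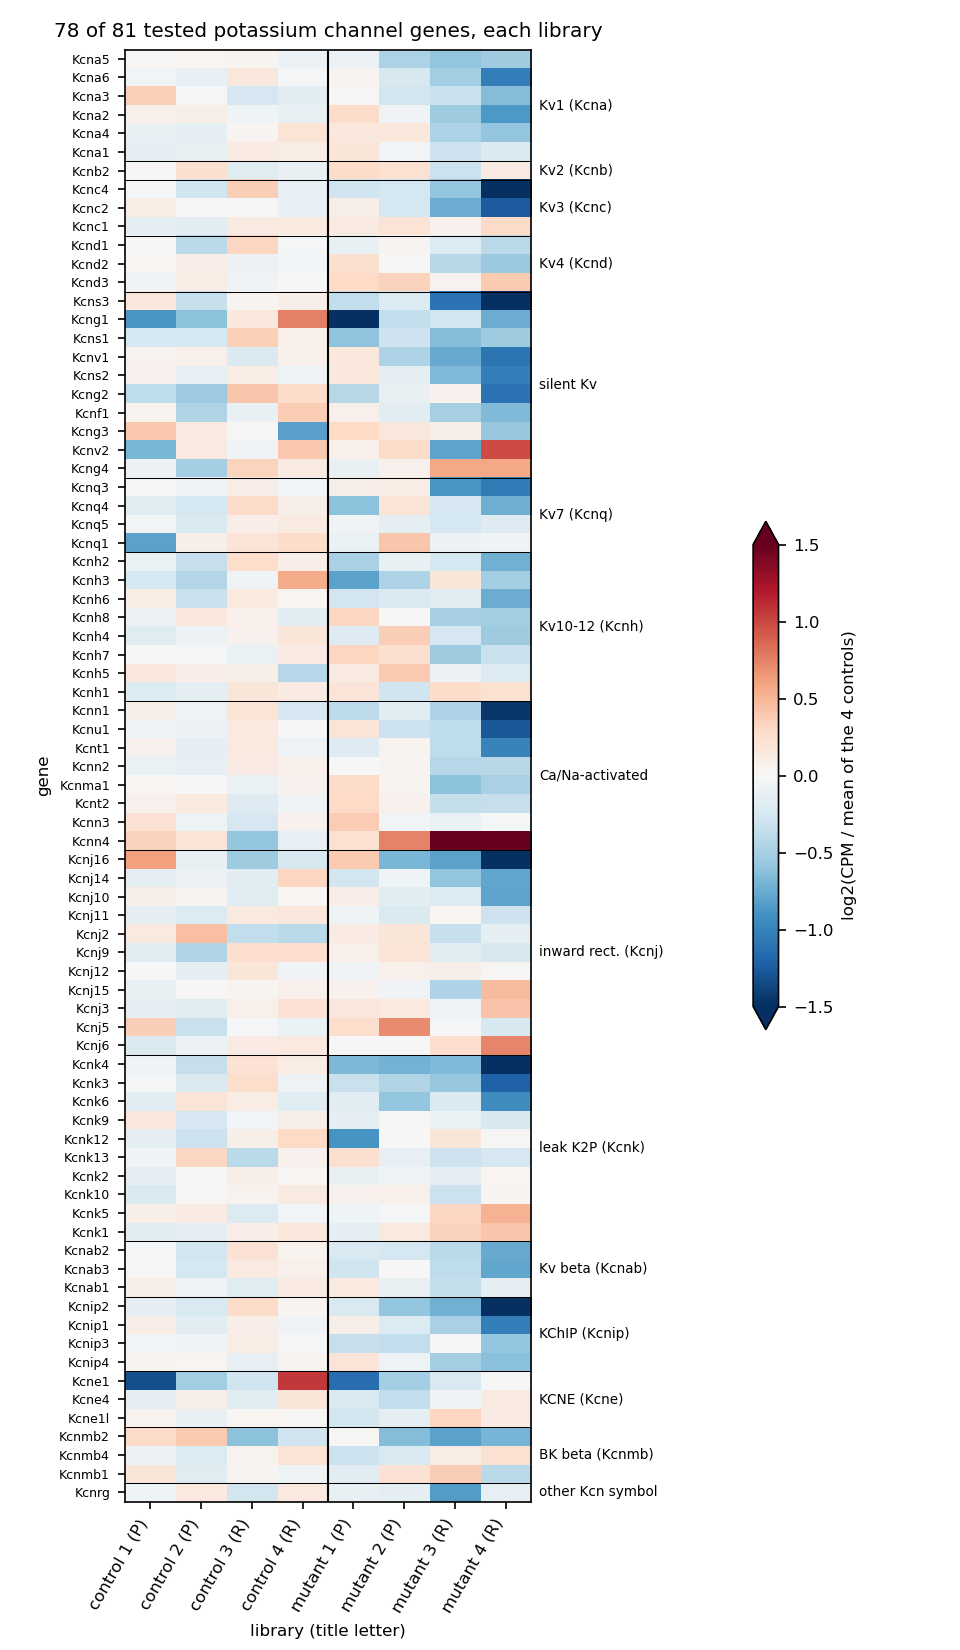
Level of 78 of the 81 tested potassium channel genes in each of the 8 libraries as log2 of CPM over the mean of the 4 controls, grouped by subfamily, with blue below and red above that mean. The columns of mutants 3 and 4 are mostly blue, and over all 81 genes 46 and 47 were below every control there, against 21 and 22 in mutants 1 and 2.

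The 5 genes without overlap were the leak channel genes Kcnk4 and Kcnk3, the auxiliary gene Kcnip2, the silent subunit gene Kcns1 and the Kv1 gene Kcna5. The windows around their start sites are shown because these genes were lower in all mutants. Each covers 250 bases before to 50 after the start, from RefSeq on GRCm38.p6, read 5′ to 3′ on the gene's strand. Capitals mark the E-box CAGCTG, a motif of the basic helix-loop-helix class of factors to which Math1 belongs, and the GC box GGGCGG, searched on both strands. Kcnk3 is given by name only. Whether any of these motifs has a part in the lower levels was not tested.
Kcnk4, chr19:6934466-6934765, minus strand: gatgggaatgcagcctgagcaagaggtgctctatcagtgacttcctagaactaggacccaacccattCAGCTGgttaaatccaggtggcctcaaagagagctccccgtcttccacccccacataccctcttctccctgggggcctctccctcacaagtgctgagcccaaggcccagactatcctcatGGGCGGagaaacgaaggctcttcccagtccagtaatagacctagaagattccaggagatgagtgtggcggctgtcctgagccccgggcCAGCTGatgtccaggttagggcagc
Kcnip2, chr19:45816014-45816313, minus strand: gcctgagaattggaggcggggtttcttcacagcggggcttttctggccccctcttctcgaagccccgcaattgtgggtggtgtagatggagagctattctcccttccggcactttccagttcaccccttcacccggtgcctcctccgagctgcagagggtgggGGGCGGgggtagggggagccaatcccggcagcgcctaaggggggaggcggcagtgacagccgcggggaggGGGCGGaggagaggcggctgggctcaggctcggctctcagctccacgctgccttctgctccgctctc
Kcns1, chr2:164171064-164171363, minus strand: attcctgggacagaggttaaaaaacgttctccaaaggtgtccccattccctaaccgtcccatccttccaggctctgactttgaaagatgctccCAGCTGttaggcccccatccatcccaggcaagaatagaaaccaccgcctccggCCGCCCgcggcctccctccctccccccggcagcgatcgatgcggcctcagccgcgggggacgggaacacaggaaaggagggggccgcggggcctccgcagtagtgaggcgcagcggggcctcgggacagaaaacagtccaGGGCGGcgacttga
Kcna5, chr6:126535506-126535805, minus strand: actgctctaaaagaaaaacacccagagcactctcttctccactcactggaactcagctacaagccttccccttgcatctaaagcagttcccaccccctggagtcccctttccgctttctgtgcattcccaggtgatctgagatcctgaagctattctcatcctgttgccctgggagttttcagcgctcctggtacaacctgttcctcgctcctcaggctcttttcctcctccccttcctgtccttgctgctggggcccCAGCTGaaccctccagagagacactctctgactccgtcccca

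Of the 92 genes, 66 matched such a window by symbol. An E-box CAGCTG was found in 17 of the 66 (25.8%), against 18.3% of all 27025 genes with a window. A GC box GGGCGG was found in 42 of the 66 (63.6%), against 38.2% of all genes. A gene counted if any of its windows matched, and some genes have several. Per window, the GC box was in 48.9% of 90 channel gene windows, against 35.7% of all 32851. The E-box was in 25.6% of them, against 16.3%. The windows of the potassium channel genes had a median GC content of 58.3%, against 52.7% over all windows. The Gli site GACCACCCA, bound by the factors that Sufu restrains, was found for 0 of the 66 genes and for 0.289% of all genes. The half-site TTCAGCACC of the neuronal repressor REST was in 1 of the 66 (1.52%), Kcnh6, against 0.433% of all genes. With shares this low over all genes, 66 genes are too few for the Gli and REST counts to be told from the background. All these are matches of letters and not measured binding.

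Kcnk4 encodes TRAAK, a leak channel opened by membrane stretch. It stood at 4.61, 3.75, 5.53 and 5.16 CPM in controls 1 to 4 and at 2.97, 2.92, 3.01 and 1.34 CPM in mutants 1 to 4. All mutants were below all controls, and mutant 4 was the lowest by far. Controls averaged 4.76 ± 0.78 CPM and mutants 2.56 ± 0.82 CPM (SD, n = 4 each), and the log2 fold change was -0.90 (SE 0.25, edgeR adjusted p = 0.381), at -0.51 within P and -1.34 within R. Its window holds 2 E-boxes and 1 GC box.

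Kcnk3 encodes TASK-1, a leak channel closed by acid. It stood at 21.0, 18.5, 25.8 and 20.4 CPM in controls 1 to 4 and at 17.1, 15.7, 14.4 and 9.22 CPM in mutants 1 to 4. The groups did not overlap, and mutants 1 and 2 lay closest to the controls. Its log2 fold change was -0.60 (SE 0.19, edgeR adjusted p = 0.381), at -0.27 within P and -0.997 within R.

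Kcnip2 encodes KChIP2, a calcium-binding partner of the Kv4 pores. It stood at 13.3, 12.57, 17.8 and 15.2 CPM in controls 1 to 4 and at 12.55, 9.80, 8.97 and 4.39 CPM in mutants 1 to 4. Mutant 1 was barely under control 2, so the lack of overlap rests on a difference smaller than the spread within each group. The log2 fold change was -0.72 (SE 0.26, edgeR adjusted p = 0.381), at -0.22 within P and -1.34 within R. Kcnip2 lies on chromosome 19, where RefSeq on GRCm38.p6 places 14 protein-coding genes between it and Sufu, so all mutants may share sequence flanking the null allele there. Kcnk4 is on the same chromosome with 458 protein-coding genes between. Genotype and flanking sequence cannot be told apart.

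Kcns1 encodes a subunit that is silent alone and modifies Kv2 pores. It stood at 3.76, 3.75, 5.80 and 4.74 CPM in controls 1 to 4 and at 2.97, 3.65, 2.87 and 3.12 CPM in mutants 1 to 4. Mutant 2 came close to the P controls, and the R controls were the highest. The log2 fold change was -0.51 (SE 0.18, edgeR adjusted p = 0.381), at -0.18 within P and -0.84 within R. Kcna5, which encodes the Kv1.5 pore, stood at 2.83, 2.85, 2.88 and 2.63 CPM in controls 1 to 4 and at 2.62, 2.02, 1.86 and 1.93 CPM in mutants 1 to 4. Its control values were tight, and mutant 1 all but touched control 4. The log2 fold change was -0.41 (SE 0.17, edgeR adjusted p = 0.392), at -0.29 within P and -0.57 within R.

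Both genes with higher means and an unadjusted p under 0.05 overlapped between groups. Kcnd3, the Kv4.3 pore of A-type current, stood at 97.7, 110.1, 97.9 and 102 CPM in controls 1 to 4 and at 126, 130.0, 105.4 and 134 CPM in mutants 1 to 4. Only mutant 3 was within the control range. Its log2 fold change was 0.28 (SE 0.10, edgeR adjusted p = 0.381), at 0.29 within P and 0.23 within R. Kcnn4, a calcium-activated channel best known from blood cells, stood at 1.05, 0.94, 0.55 and 0.75 CPM in controls 1 to 4 and at 0.96, 1.37, 2.56 and 2.94 CPM in mutants 1 to 4. Mutant 1 was inside the control range and mutants 3 and 4 were far above it, with a log2 fold change of 1.25 (SE 0.37, edgeR adjusted p = 0.381), at 0.23 within P and 2.05 within R.

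**Figure D3:**
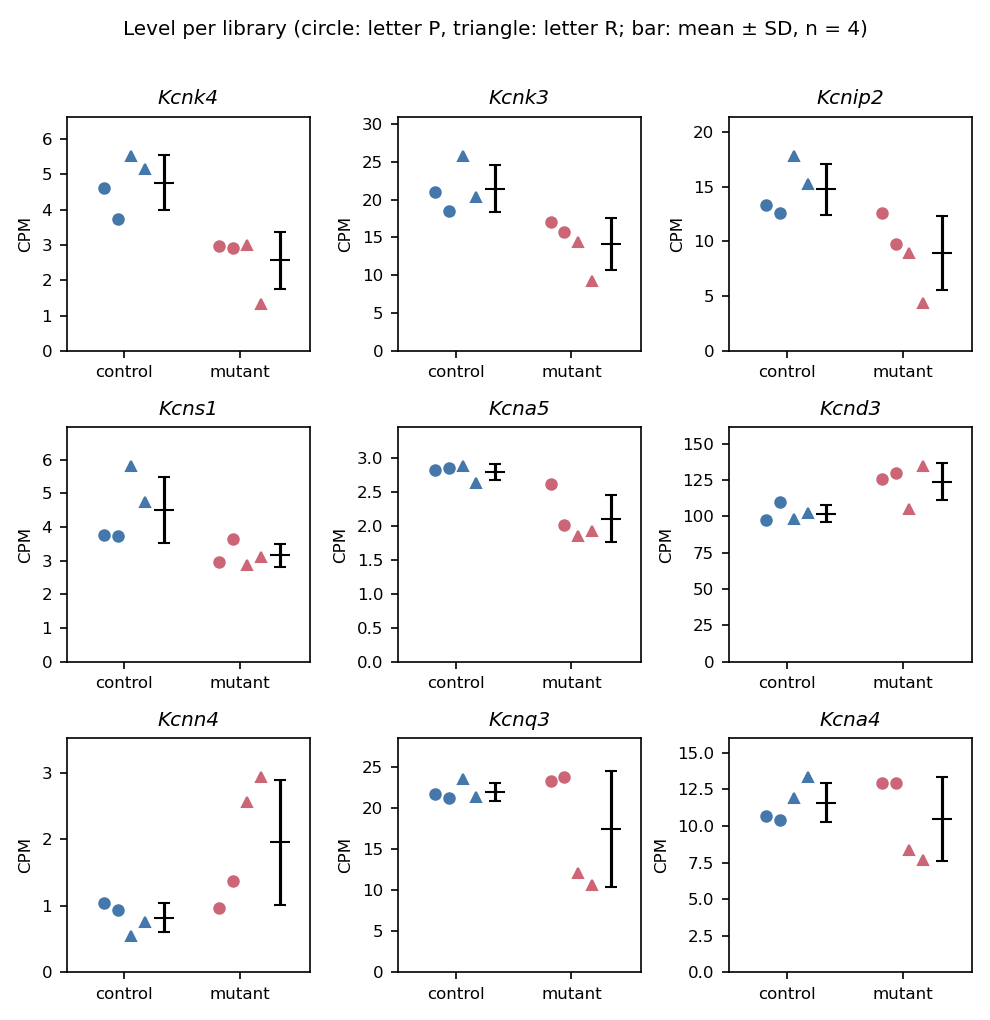
CPM of 9 potassium channel genes in each library on linear axes from 0, with circles for title letter P, triangles for R, and bars for the mean ± SD of 4 libraries. Kcnk4, Kcnk3, Kcnip2, Kcns1 and Kcna5 are lower in all mutants, while for Kcnq3 and Kcna4 only the mutant triangles lie below the controls.

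The Kv1 genes, whose pores set firing threshold along axons, had negative log2 fold changes for 6 of 6 tested members, with a median of -0.26. Kcna6, the highest of them per length, averaged 81.3 ± 7.25 CPM in controls against 62.3 ± 18.7 CPM in mutants (SD, n = 4 each). Kcna2, a main axonal pore, was at 79.0 ± 5.41 and 67.3 ± 23.0 CPM (SD, n = 4 each). The difference in means was about as large as the SD of the mutants for Kcna6 and smaller than it for Kcna2. Within P both were near 0, Kcna6 at -0.01 and Kcna2 at 0.03 on the log2 scale, and within R they were at -0.86 and -0.63. The Kv beta genes, which encode cytoplasmic partners of Kv1 pores, were also negative for 3 of 3 members, median -0.34. Among them Kcnab2 averaged 65.3 ± 9.33 CPM in controls and 49.6 ± 7.85 CPM in mutants (SD, n = 4 each), and Kcnab3 had a log2 fold change of -0.34 (SE 0.17). Kcnab2 was at -0.10 within P and -0.73 within R, and Kcnab3 at -0.02 and -0.71.

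Kv3 pores repolarize neurons quickly and so allow fast firing. Of 4 Kv3 genes, 3 were negative, with a median of -0.27. Kcnc4 was the lowest of them at -0.64 (SE 0.31), at -0.13 within P and -1.30 within R. It ranged from 13.3 to 44.9 CPM in mutants and from 43.8 to 69.4 CPM in controls. Kcnc2 was at -0.46 (SE 0.24), with -0.14 within P and -0.94 within R. Kcnc1, typical of fast-firing cerebellar neurons, was at 0.17 (SE 0.10).

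The Kv4 genes and their KChIP partners did not share a direction. Kcnd3 had a higher mean, Kcnd2 stood at 112 ± 6.46 CPM in controls and 101.3 ± 25.8 CPM in mutants (SD, n = 4 each), and the Kv4 median was -0.15 over 3 genes. All 4 KChIP genes were negative, with a median of -0.33. Besides Kcnip2, Kcnip3 averaged 63.8 ± 3.59 CPM in controls and 51.5 ± 8.75 CPM in mutants (SD, n = 4 each). Kcnip1 averaged 76.3 ± 6.76 and 59.7 ± 18.6 CPM (SD, n = 4 each), with a log2 fold change of -0.03 within P and -0.79 within R. Kcnip3 was in mutants 1, 2 and 4 below every control, while mutant 3 at 63.6 CPM was within their range.

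Silent subunits form no channel alone. Of the 10 tested, 7 were negative, with a median of -0.34 and a range from -0.80 to 0.32. Kcns3 had the lowest value at -0.80 (SE 0.36), at 1.24 ± 0.18 CPM in controls and 0.72 ± 0.37 CPM in mutants (SD, n = 4 each), with -0.22 within P and -1.68 within R. Kcns2, the highest of them per length, was at -0.35 (SE 0.22), with 0.03 within P and -0.88 within R, and Kcnf1 at -0.29 (SE 0.21). For 5 of the 10, Kcng1, Kcng3, Kcng4, Kcns3 and Kcnv2, the control mean was below 2 CPM, which widens their counting error.

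The Kv7 genes include those of the M-current that damps repeated firing, and 4 of 5 Kv7 genes were negative, median -0.20. Kcnq5 averaged 26.9 ± 2.94 CPM in controls and 24.0 ± 1.48 CPM in mutants (SD, n = 4 each). Among the 8 Kcnh genes, related to the ether-a-go-go channels, 6 were negative, median -0.12. Kcnh2, the gene of the hERG channel, was at 59.6 ± 10.6 CPM in controls and 45.9 ± 8.34 CPM in mutants (SD, n = 4 each), with log2 fold changes of -0.08 within P and -0.69 within R. Kcnh6 had a log2 fold change of -0.34 (SE 0.17). Kcnh4 was at -0.11 (SE 0.18).

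Of 8 calcium- and sodium-activated genes, 6 were negative, with a median of -0.16. Kcnn1, a small-conductance channel active after spikes, averaged 22.3 ± 3.01 CPM in controls and 15.3 ± 5.02 CPM in mutants (SD, n = 4 each), with a log2 fold change of -0.55 (SE 0.23), at -0.28 within P and -0.90 within R. Kcnt1, a sodium-activated pore, was at -0.33 (SE 0.19), with -0.03 within P and -0.72 within R, and the pore gene Kcnma1 of the large-conductance BK channel was at -0.15 (SE 0.18). The BK beta subunits had a median of -0.03 over 3 tested members. Kcnmb4, the neuronal one, was at -0.03 (SE 0.14), and Kcnmb2 was at -0.50 (SE 0.26).

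The inward rectifiers stood near even, with 6 of 11 negative and a median of -0.02. Kcnj10 was at 143, 138, 119 and 138 CPM in controls 1 to 4 and at 144, 121, 116 and 77.5 CPM in mutants 1 to 4. Only mutant 4 was far under the controls. Kcnj16, which joins Kcnj10 in glial channels, was at -0.49 (SE 0.37) with 14.6 to 32.4 CPM among controls alone. Kcnj6, a pore opened by G proteins, had 22.3, 24.4, 28.2 and 28.8 CPM in controls 1 to 4 and 25.8, 26.0, 30.9 and 43.2 CPM in mutants 1 to 4, a log2 fold change of 0.28 (SE 0.17). Kcnj14 was at -0.40 (SE 0.23).

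Leak channels had 8 of 10 negative values and a median of -0.11, with Kcnk4, Kcnk3 and, at -0.44 (SE 0.21), Kcnk6 the lowest. Kcnk1 had 34.2 ± 3.85 CPM in controls and 39.5 ± 6.42 CPM in mutants, and Kcnk2 had 32.2 ± 2.02 and 30.7 ± 1.69 CPM (SD, n = 4 each). The KCNE genes had a median of -0.11 over 3 tested members. Kcne1l was at 40.4 ± 2.02 and 41.1 ± 7.62 CPM (SD, n = 4 each), Kcne4 at -0.11 (SE 0.21) and Kcne1 at -0.37 (SE 0.48). Kcnrg was at -0.27 (SE 0.22). By role, the 67 tested pore-forming genes had 49 negative values and a median of -0.15, and the 13 auxiliary genes had 11 negative values and a median of -0.31.

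The lower levels belonged mostly to the libraries with title letter R. Between the P libraries alone, 38 of 81 genes were negative and the median log2 fold change was 0.03, while between the R libraries alone 64 of 81 were negative and the median was -0.45. Over all tested genes these medians were -0.003 and 0.01. Every Kv1 gene was negative within R, with a median of -0.60, against 0.01 within P. The Kv beta median was -0.71 within R and -0.02 within P, the silent median -0.82 and -0.01, the KChIP median -0.67 and -0.12, and the Kv7 median -0.50 and 0.06. Inward rectifiers had -0.10 and 0.06, and leak channels -0.19 and -0.11. Each letter holds 2 mutants and 2 controls.

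Both R mutants lay below both R controls for 52 genes (64.2%), against 29.2% of all tested genes. Both lay above them for 9 genes (11.1%), against 35.4% of all. Among the P libraries these counts were 14 lower (17.3%, background 23.2%) and 13 higher (16.0%, background 23.1%). The mutants were lower within both letters for 7 genes (8.64%, background 6.61%), namely Kcna5, Kcnip2, Kcnk3, Kcnk4, Kcnmb2, Kcnn1 and Kcns1. They were higher within both for 3 genes (3.70%, background 8.74%), namely Kcnd3, Kcnj6 and Kcnk1. They were higher in P and lower in R for 8 genes (9.88%, background 5.23%), namely Kcna1, Kcna4, Kcnh7, Kcnj9, Kcnk10, Kcnma1, Kcnn2 and Kcnq3, and lower in P and higher in R for 2 genes (2.47%, background 8.36%), Kcne1l and Kcnk5.

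**Figure D4:**
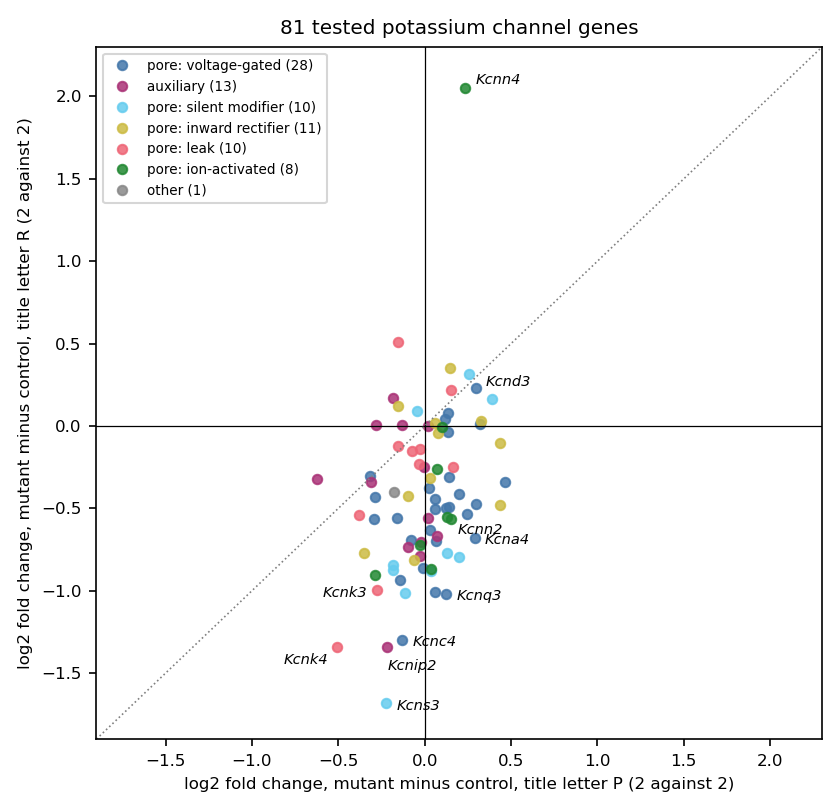
Log2 fold change of mutant over control for the 81 tested genes within title letter P on the x axis and within title letter R on the y axis, 2 mutants against 2 controls each, coloured by role, with the dotted line marking equal values. Most points lie below the horizontal zero line, with 64 negative within R, and they are split about evenly by the vertical one, with 38 negative within P.

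A test of the difference itself, the interaction of title letter and genotype in edgeR, called 4 of 81 genes (4.94%) at an adjusted p under 0.05, against 3.2% of all tested genes. Without adjustment 29 of 81 were under 0.05, against 22.5% of all. In all 4 the difference between mutant and control was more negative in R. Kcnq3, Kcna4 and Kcnn2 among them are neuronal pores of the Kv7, Kv1 and calcium-activated families.

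Kcnq3, a pore of the M-channel, stood at 21.7, 21.2, 23.5 and 21.4 CPM in controls 1 to 4 and at 23.3, 23.7, 12.02 and 10.6 CPM in mutants 1 to 4. The P mutants were close to the controls and the R mutants far below them. Its log2 fold change was 0.13 within P and -1.02 within R (interaction -1.12, edgeR adjusted p = 0.0174).

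Kcna4, an inactivating Kv1 pore, stood at 10.7, 10.4, 11.9 and 13.3 CPM in controls 1 to 4 and at 12.9, 12.9, 8.35 and 7.69 CPM in mutants 1 to 4. Its P mutants were above the P controls and its R mutants below all controls, with 0.29 within P and -0.68 within R (interaction -0.95, edgeR adjusted p = 0.0371). Kcnn2, a small-conductance channel of Purkinje cells, stood at 20.6, 20.3, 24.0 and 23.3 CPM in controls 1 to 4 and at 22.1, 22.8, 16.4 and 16.5 CPM in mutants 1 to 4. It had the same order, with 0.13 within P and -0.55 within R (interaction -0.66, edgeR adjusted p = 0.0465).

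Counted library by library, mutants 3 and 4 differed from mutants 1 and 2. Mutant 1 was below every control for 25.9% of the 81 genes (background 24.3%) and mutant 2 for 27.2% (background 21.5%). Mutant 3 was below every control for 56.8% (background 24.4%) and mutant 4 for 58.0% (background 30.8%). Above every control, the shares were 21.0, 12.3, 9.88 and 16.0% in mutants 1 to 4, against backgrounds of 24, 22.3, 27.4 and 35%. The summed level of all 92 genes was 1905 to 2132 CPM in controls and 2067, 1977, 1720.05 and 1564 CPM in mutants 1 to 4. The R mutants were thus below every control in their sum, and the P mutants were within the control range.

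**Figure D5:**
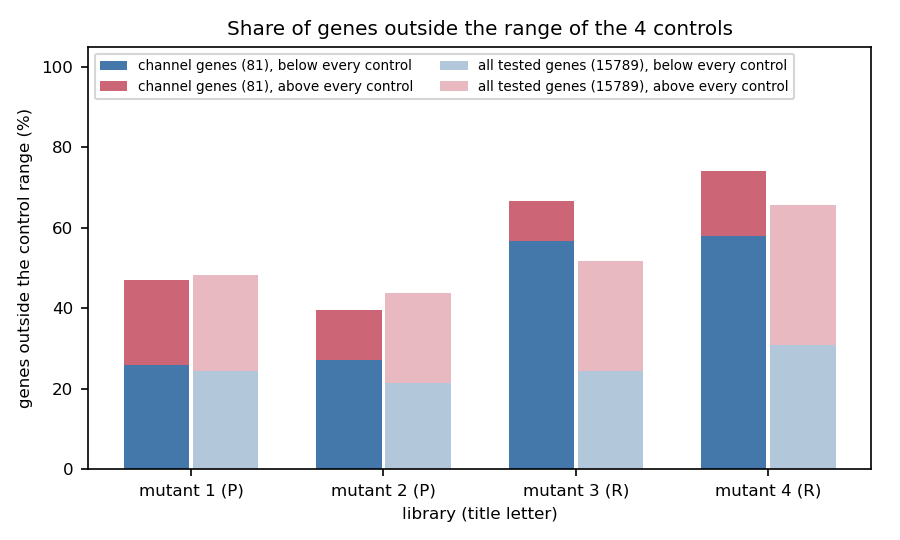
Share of genes, in percent, that lay below (blue) or above (red) all 4 controls in each mutant library, stacked, for the 81 tested potassium channel genes in dark and all 15789 tested genes in pale colours. In mutants 3 and 4 the blue share of the channel genes, 56.8 and 58.0%, exceeds the pale blue share of 24.4 and 30.8%.

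Sums of marker genes of other cells and regions also differed among the mutants, though not all in the order of the channel genes. The summed level of 6 markers of brainstem motor and monoamine neurons was 48.8 to 62.2 CPM in controls and 39.5, 41.7, 22.9 and 4.61 CPM in mutants 1 to 4. The 9 hindbrain Hox genes summed to 103 to 160 CPM in controls and to 131, 59.6, 82.7 and 5.46 CPM in mutants 1 to 4. Both sums were lowest in mutant 4, where Kcnk4, Kcnip2, Kcnc4 and Kcnk3 also had their lowest values. Kcns1 and Kcna5 were lowest in mutant 3, at 2.87 and 1.86 CPM. The channel genes below every control made up 56.8% in mutant 3 and 58.0% in mutant 4. The Hox sum was higher in mutant 3 than in mutant 2, and the sum of brainstem neuron markers was lower in mutant 3 than in mutant 2. The part of either region in the lower channel levels was not tested.

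The 7 granule cell precursor markers summed to 1017 to 1229 CPM in controls and to 1051, 1372, 1549 and 2087 CPM in mutants 1 to 4. The 9 oligodendrocyte markers summed to 1246 to 1873 CPM in controls and to 1245, 1013, 1152 and 644 CPM in mutants 1 to 4. The 5 markers of GABAergic interneurons summed to 430.1 to 549 CPM in controls and to 460.0, 386, 423 and 304 CPM in mutants 1 to 4, and the 7 Purkinje cell markers to 465 to 843 CPM and to 748, 672, 700.2 and 1049 CPM. The oligodendrocyte sum was under every control in all mutants, in mutant 1 only barely, and the Purkinje sum was not under the controls in any mutant. The 7 choroid plexus markers summed to 1337 to 3116 CPM in controls and to 3380.4, 5943, 4736 and 4645 CPM in mutants 1 to 4, and 7 of 7 were higher without overlap. The 7 microglia markers summed to 134 to 204 CPM in controls and to 164, 137, 130.3 and 101.4 CPM in mutants 1 to 4, and 7 of 7 had negative log2 fold changes. None of these markers was at 0 in all libraries, and Purkinje and granule lineage markers were present in each. The part of these cell types in the lower channel levels was not tested.

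Partner genes, a list of 36 that bind potassium channels, anchor them or move potassium, were also mostly lower in mean. Of 35 tested, 28 were negative, with a median of -0.23, 0.05 within P and -0.37 within R. By edgeR 0 were called (background 0%), and 4 had an unadjusted p under 0.05 (11.4%, against 12.6% of all genes). Without overlap between groups, 1 was lower (Lgi3) and 1 was higher (Abcc9) in mutants. That share of 5.71% was near the 6.57% of all tested genes. All 9 genes of the axonal Kv1 complex were negative, all 4 HCN genes, which encode cation channels opened by hyperpolarization, and all 4 genes of ankyrins and the axon initial segment. Within R all of them were negative too, but within P only 3 of 9, 2 of 4 and 2 of 4 were. Pumps and cotransporters that move potassium were split, with 5 of 10 negative.

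Abcc9, which encodes a sulfonylurea receptor that pairs with inward rectifier pores, stood at 15.1, 18.1, 16.3 and 16.5 CPM in controls 1 to 4 and at 21.6, 26.1, 23.1 and 23.1 CPM in mutants 1 to 4. All mutants were above all controls. Its log2 fold change was 0.51 (SE 0.11), with an adjusted p of 0.381 in edgeR and 0.00969 in DESeq2, and Abcc9 was among the 8 markers of endothelial cells and pericytes, whose sum was 244 to 290.2 CPM in controls and 269.5 to 385 CPM in mutants. Lgi3, a secreted partner of the Kv1 complex, had 48.3 ± 7.66 CPM in controls and 27.7 ± 9.83 CPM in mutants (SD, n = 4 each), with no overlap and a log2 fold change of -0.81 (SE 0.26, edgeR adjusted p = 0.381), at -0.55 within P and -1.14 within R. The interaction with title letter called Lgi2, of the same complex (adjusted p = 0.0477), and the ankyrin gene Ank2 (adjusted p = 0.0309), both more negative in R. Ank2 stood at 468, 471, 501 and 471 CPM in controls 1 to 4 and at 538, 506, 322 and 268 CPM in mutants 1 to 4.

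Use of exon bins was compared by the share of a gene's reads in each bin. A total of 62 potassium channel genes with 488 bins were tested. By edgeR's diffSpliceDGE with Simes' method, 0 were called (background 0.00749%) and 0 had an unadjusted p under 0.05 (background 0.225%), and the gene-level F test also called 0. That background of 0.225% is far below what a threshold of 0.05 gives for unchanged genes. The Simes test thus called almost nothing in these data, and its 0 calls do not show that exon use was alike. Kcnk4, on the minus strand, was chosen after its values were seen. Its bin numbered 1 held 22.4, 20.1, 18.99 and 22.9% of its bin reads in controls 1 to 4. The shares were 25.0, 36.05, 28.4 and 40.9% in mutants 1 to 4. Which end of the transcript that bin lies at was not determined. Those shares did not overlap, and the bin did not pass the test. Shares of other channel gene bins, such as bin 14 of Kcnh8 and bin 4 of Kcnc1, did not overlap either. How many of all bins do so was not counted. Kcnk4 had only 36 to 121 reads in its gene count per library, so its bin shares rest on few reads.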

How the data were processed

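The deposited tables hold counts of reads per gene and per exon bin for each of 8 libraries, as whole numbers that the authors had not normalized. The submitters' processing notes name TopHat, HTSeq, DESeq2 and the build mm9 but no tool version. The annotation and the use of strand are not given in the sources used here, so reads of a gene and an antisense partner, such as Kcnd3 and Kcnd3os, cannot be told apart. The 5 summary lines of each gene table, 24.8 to 34.3% of entries, name no gene and were left out. Their share was 30.1 to 34.3% in the P libraries and 24.8 to 26.3% in the R libraries, so the letters differed in both genotypes. Cerebella were collected singly per the labels, so each library is a different pup. Within a group, no pair of libraries matched within sampling noise (chi-square over its degrees of freedom 7.42 to 81.0). For controls this value was 12.6 and 7.42 within letters P and R and 19.0 to 33.9 between letters. For mutants it was 37.0 and 29.2 within letters P and R and 46.6 to 81.0 between letters.

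Genes were tested in R 4.3.3 with edgeR 4.0.16, by the two-sided quasi-likelihood F test after filterByExpr and TMM scaling, over 15789 genes with Benjamini-Hochberg adjustment at 0.05. SE is the absolute log2 fold change over the root of F. DESeq2 1.42.0, other scaling, no filter, a block and separate fits by title letter, and leaving out each library were alternatives. The edgeR gene test and the exon bin test, both of genotype alone, were also run on simulated counts. The DESeq2, interaction, block and separate title letter fits were not. The members and lists were chosen with earlier results of these data known. Named genes were tested members without overlap and at least 1 CPM in the higher group, and in each subfamily the 2 with the smallest p and the 2 with the highest level per length. They numbered 41, and 9 others that differed between or within title letters were named after their values were seen, as were examples beyond these. Among the tested members, 3 are not reported by name here, though counts and medians over groups include them. Exon lengths and promoter windows are of GRCm38 and its patch GRCm38.p6, matched by symbol, not of mm9.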

Additional observations from a re-analysis of the deposited data

Results flagged for a closer look

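Single libraries stood apart for 5 genes, by Dixon's test of the highest or lowest of 4 libraries, over 100 such tests. Chance alone marks about 1 in 20 groups. Kcnj14 was at 1.92 CPM in control 4, Kcnk10 at 10.5 CPM in mutant 3, Kcnk4 at 1.34 CPM in mutant 4, Kcnmb2 at 6.17 CPM in mutant 1 and Kcnrg at 0.93 CPM in mutant 3. For Kcnk4 the other mutants were between 2.92 and 3.01 CPM.

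Mutants lay on opposite sides of the controls in the 2 title letters for 10 genes, given here as the log2 fold change in R minus that in P. Of the 81 genes, 9.88% were higher in P and lower in R, against 5.23% of all tested genes. The share lower in P and higher in R was 2.47%, against 8.36% of all. Each such order rests on 2 mutants and 2 controls per letter. The interaction was called for Kcnq3 at -1.12, Kcna4 at -0.95 and Kcnn2 at -0.66. The other 7 had mutants on opposite sides of the controls in P and R without passing that test. They were Kcnj9 at -0.89, Kcnh7 at -0.75, Kcnma1 at -0.69, Kcna1 at -0.58, Kcnk10 at -0.39, Kcne1l at 0.38 and Kcnk5 at 0.69.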

How the results depend on the processing

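No potassium channel gene was called between mutant and control under any alternative run, and the median over all channel genes was negative except within title letter P. Within P it was 0.027, and by subfamily 0.010 for Kv1, 0.0058 for Kv3, 0.14 for Kv4, -0.0056 for silent subunits, 0.064 for Kv7, 0.13 for Kcnh, 0.086 for calcium- and sodium-activated genes, -0.023 for Kv beta and -0.13 for BK beta. Within R it was -0.45 over all, -0.60 for Kv1, -0.48 for Kv2, -0.62 for Kv3, -0.45 for Kv4, -0.82 for silent subunits, -0.50 for Kv7, -0.49 for Kcnh, -0.56 for calcium- and sodium-activated genes, -0.19 for leak channels, -0.71 for Kv beta and -0.67 for KChIP. The BK beta median was -0.27 without the filter, where more genes were tested, and -0.14 to 0.039 with each library left out.

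Leaving out each library in turn gave 5 to 15 genes lower without overlap and 0 to 1 higher, the former reaching 15 without mutant 1, 13 without control 2 and 12 without mutant 2, beside all-gene shares of 8.34, 7.6 and 4.95%. The number with an unadjusted p under 0.05 was 5 without control 3 (6.17%, against 7.13%), 29 without mutant 1 (35.8%, against 20%), 20 with title letter as a block (24.7%, against 18.9% of all genes in that run), 6 within P (7.41%, against 13.9%) and 41 within R (50.6%, against 30.2%). The sign turned in such runs for Kcne1 (-0.64 to 0.26), Kcne1l (-0.086 to 0.10), Kcnh7 (-0.18 to 0.10), Kcnj9 (-0.16 to 0.076), Kcnk10 (-0.094 to 0.059) and Kcnmb4 (-0.14 to 0.041). Abcc9 was called by DESeq2 alone (0.50, adjusted p = 0.00969), with adjusted p from 0.00969 to 0.649 over its alternatives. The causes were not tested. No paired analysis was possible because the labels give no numbers that pair pups. Genes near 1 CPM rest on few reads per library, so small differences were not detectable there.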
